A study of Mus musculus with 5 samples.

Results

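Interferon-stimulated genes are the genes that cells switch on when an interferon binds its receptor, and 42 of them were followed in ovarian cells of young mice. They were chosen by name, as known targets of interferon. Of the 42, 41 were among the 31053 genes counted in these data, 24630 of which had at least 1 UMI (a counted RNA molecule), and Mx2 was not analysed here. Type I interferons bind a receptor made of IFNAR1 and IFNAR2, whose kinases JAK1 and TYK2 pass the signal on by phosphorylation. A complex that holds STAT2 and IRF9 then binds the interferon-stimulated response element in target promoters, whereas interferon gamma acts through its own receptor. The products of the targets sense foreign nucleic acid, block viral RNA and protein synthesis, tag proteins with ISG15 or feed back on the pathway, and most tissues keep a low level of them without infection.

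The ovaries came from mice aged 2, 3, 4, 5 and 6 wk, all of the genotype C57BL6/J and without treatment, with 1 library per age. They were dissociated with trypsin, live cells were sorted, and UMIs were counted by 3′ sequencing in droplets. Each library held 7779 to 11077 cells and 93438618 to 144609431 UMIs, and of 47890 distinct cell barcodes 273 (0.570%) occurred in more than 1 library. Cells were clustered without the members and a list of further interferon pathway genes, and clusters were named from marker genes. Interferon-induced genes outside these lists were not kept out. This gave 18146 granulosa-like, 14235 stromal-like, 4017 smooth muscle-like, 938 theca-like, 863 pericyte-like, 713 blood endothelial-like, 498 hematopoietic-like, 321 surface epithelial-like, 227 lymphatic endothelial-like, 457 erythroid-like and 91 rete ovarii-like cells, besides 19 cells with oocyte markers and 7638 cells in unnamed clusters. Levels are CPM, the UMIs of a gene per 1000000 UMIs of the same cells, and since a transcript is counted once at its 3′ end they are not divided by gene length. Because 1 library stands for an age, no test between ages was made, and every interval given (95%, exact Poisson for a level, exact binomial for a share, conditional on both counts for a ratio) covers counting error only. The spread between mice was not measured, and how many mice went into a library is not given in the sources used here.

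The interferon genes followed 2 patterns. Summed over the 41 members, stromal-like cells held 564, 706, 1259.8, 1528 and 1648 CPM at 2, 3, 4, 5 and 6 wk. Granulosa-like cells, the largest class, held 551, 530.3, 524, 630.2 and 656 CPM. Stromal-like cells at 6 wk were thus 2.92 (2.88 to 2.96) times their level at 2 wk, and granulosa-like cells 1.19 (1.17 to 1.21) times. Blood endothelial-like cells were high already at 2 wk and rose from there, with 1279, 1601, 2164, 3286 and 3235 CPM at the 5 ages and 2.53 (2.38 to 2.70) times the 2 wk level at 6 wk. Hematopoietic-like cells held 985, 1489.9, 2347, 2662 and 3583 CPM, which is 3.64 (3.34 to 3.97) times at 6 wk over 2 wk. The makeup of this class moved too, with 5 macrophage-like among its 52 cells at 2 wk and 38 among 130 at 6 wk, and the part of this shift in the ratio was not tested. The class also held 37 cells in a cluster led by Dcn and Mfap4 and 23 in one led by Inha and Kctd14. Their median depths were 17950 and 26450 UMIs, against 6695.5 UMIs in the class. A further cluster of 49 cells came to 91.8% from 1 library. The part of these clusters in the sum was not tested.

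**Figure D1:**
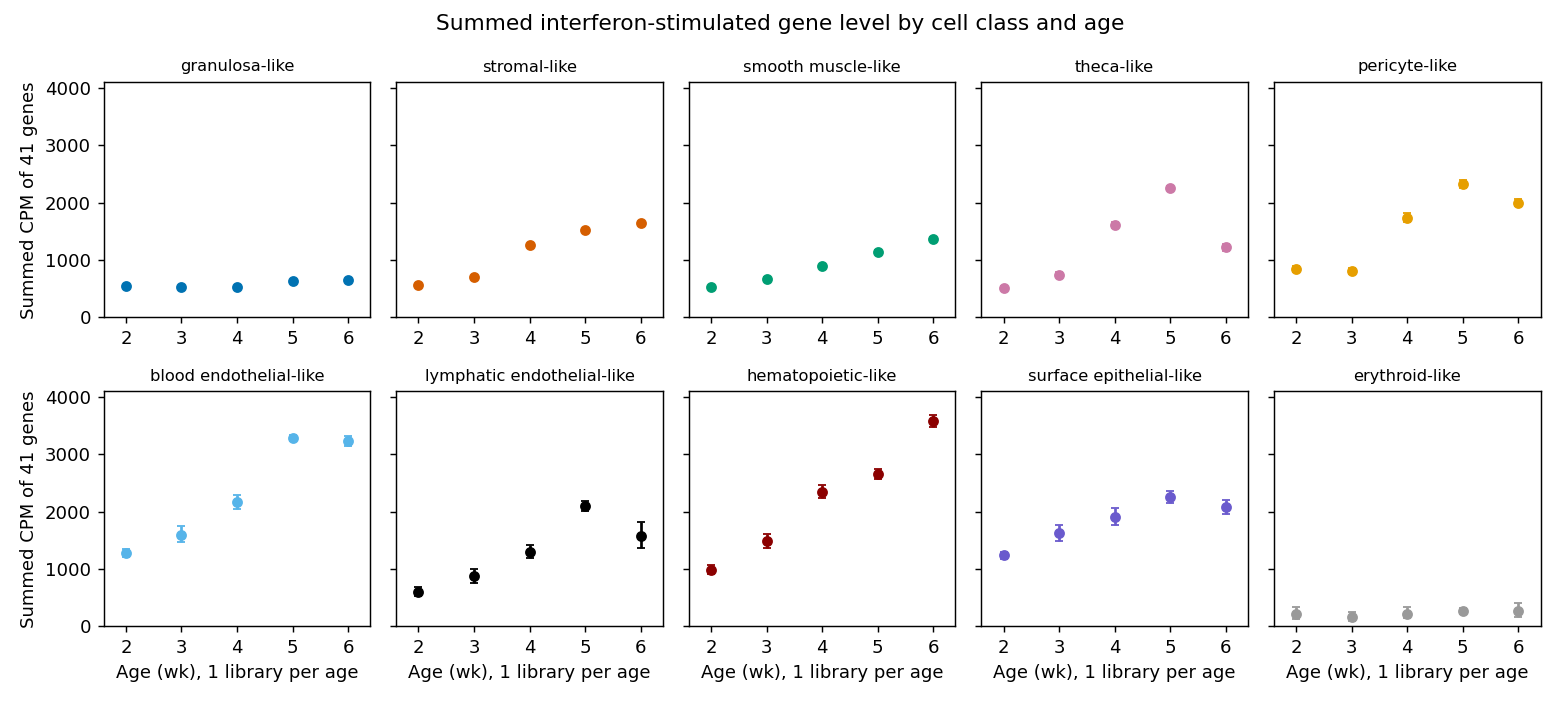
Summed CPM of the 41 measured interferon-stimulated genes (y axis) against age in weeks (x axis) for each cell class, 1 library per age, with exact 95% Poisson intervals. Granulosa-like cells stay between 524 and 656 CPM, while stromal-like cells go from 564 to 1648 CPM with the longest step between 3 and 4 wk.

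The sum was also higher at 6 wk than at 2 wk in the other classes, except that the interval of erythroid-like cells spans 1. Smooth muscle-like cells held 526, 672, 892, 1144 and 1370.3 CPM at the 5 ages, pericyte-like cells 838, 803, 1737, 2319 and 2001 CPM and surface epithelial-like cells 1240.0, 1622, 1914, 2252 and 2073 CPM. From 2 to 6 wk the sum became 2.61 (2.52 to 2.70) times as high in smooth muscle-like cells, 2.39 (2.24 to 2.55) times in pericyte-like cells and 1.67 (1.55 to 1.81) times in surface epithelial-like cells. Lymphatic endothelial-like cells, with 14 to 79 cells per library, held 606, 875, 1300.5, 2104 and 1582 CPM. Theca-like cells, the androgen-producing cells of the follicle wall, held 506, 745, 1614, 2264 and 1223 CPM. Their fall at the last age, 0.540 (0.513 to 0.568) times the level at 5 wk, rests on 54 cells at 6 wk against 498 at 5 wk, and with a coarser clustering (resolution 0.6) it was 0.707 times. That clustering counted a further 2425 cells led by Hhip as theca-like beside 823 with Cyp11a1 and Cyp17a1, so the 0.707 describes a wider class. Erythroid-like cells were the lowest class, at 156 to 264 CPM, with a ratio of 6 wk over 2 wk of 1.21 (0.606 to 2.42).

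Most of the sum came from Bst2 and Ifi27 in the classes of the follicle and stroma. Bst2, whose product tetherin holds budding virus at the cell surface, and Ifi27, a small mitochondrial and nuclear-envelope protein, together made up 68.4% of the members' UMIs in granulosa-like, 55.9% in stromal-like, 60.6% in smooth muscle-like and 60.8% in theca-like cells, against 23.4% in blood endothelial-like and 19.4% in hematopoietic-like cells. Without them, the sum grew from 2 to 6 wk by 1.28 (1.25 to 1.32) times in granulosa-like and 4.45 (4.35 to 4.56) times in stromal-like cells. In stromal-like cells 21 of the 41 members stood above 10 CPM over all ages, in granulosa-like cells 8, in blood endothelial-like cells 34 and in hematopoietic-like cells 38.

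Promoters of the members were searched for the sequence through which type I interferon acts. The interferon-stimulated response element has the core GAAANNGAAA, looked for on both strands in RefSeq's promoters (250 bases before to 50 after the start, GRCm38.p6). It was found in 18 of the 32 members that have a promoter entry (56.25%) and in 1079 of 27025 genes (3.99%), and in 3.44% of all such windows. The 10 members without an entry are Usp18, Rtp4, Oas2, Ifi27, Dhx58, Zbp1, Mx1, Mx2, Parp9 and Parp14. Shown are the 200 bases before the start, 5′ to 3′ along the gene, with matches to the motif in capitals (the reverse strand reads TTTC), for genes on which the results below turn: Isg15 (chr4:156200819-156201018, minus strand), Ifit1 (chr19:34640689-34640888, plus strand), Ifit3 (chr19:34583329-34583528, plus strand), Rsad2 (chr12:26456453-26456652, minus strand), Bst2 (chr8:71537473-71537672, minus strand) and Gbp2 (chr3:142620463-142620662, plus strand).
Isg15: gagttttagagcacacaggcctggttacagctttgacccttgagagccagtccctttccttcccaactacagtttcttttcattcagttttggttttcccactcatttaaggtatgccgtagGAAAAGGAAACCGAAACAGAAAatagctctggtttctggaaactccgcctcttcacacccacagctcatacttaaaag
Ifit1: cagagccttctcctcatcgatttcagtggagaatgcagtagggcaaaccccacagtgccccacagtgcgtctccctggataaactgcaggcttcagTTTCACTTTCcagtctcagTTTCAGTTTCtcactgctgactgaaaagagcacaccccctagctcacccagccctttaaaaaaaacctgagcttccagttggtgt
Ifit3: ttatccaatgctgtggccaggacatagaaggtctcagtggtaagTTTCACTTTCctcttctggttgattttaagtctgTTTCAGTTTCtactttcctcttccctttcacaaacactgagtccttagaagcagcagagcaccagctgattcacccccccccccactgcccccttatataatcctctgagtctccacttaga
Rsad2: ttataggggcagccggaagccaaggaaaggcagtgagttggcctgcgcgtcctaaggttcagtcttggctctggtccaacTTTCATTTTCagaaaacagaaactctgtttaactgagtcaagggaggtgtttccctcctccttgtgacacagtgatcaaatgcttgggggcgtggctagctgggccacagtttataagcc
Bst2: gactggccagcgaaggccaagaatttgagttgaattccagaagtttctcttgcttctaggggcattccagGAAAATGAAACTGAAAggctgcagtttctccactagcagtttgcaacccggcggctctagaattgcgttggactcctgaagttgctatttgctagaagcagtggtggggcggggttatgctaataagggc
Gbp2: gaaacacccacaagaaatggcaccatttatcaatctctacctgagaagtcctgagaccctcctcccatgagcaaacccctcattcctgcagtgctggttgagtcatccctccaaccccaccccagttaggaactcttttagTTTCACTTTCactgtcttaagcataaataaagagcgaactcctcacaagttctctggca
Isg15 holds 3 overlapping matches that begin 78 to 66 bases before the start, Ifit1, Ifit3 and Bst2 hold 2 each, and Rsad2 and Gbp2 hold 1. The motif was found both in genes with a steep change with age (Ifit1, Isg15) and in Bst2, whose ratio of 6 wk over 2 wk in granulosa-like cells was 1.05 (1.03 to 1.07). In stromal-like cells, where Ifit1 and Isg15 changed most, Bst2 also rose with age, though less (values below). A match is a description of these letters and not of binding.

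ISG15 is a ubiquitin-like protein that is attached to other proteins, TRIM25 is one of the ligases, and USP18 takes ISG15 off and dampens the receptor. Isg15 measured 3.09, 9.19, 68.9, 88.4 and 116 CPM in stromal-like cells at 2, 3, 4, 5 and 6 wk. The ratio of 4 wk over 3 wk was 7.49 (6.59 to 8.54), and that of 6 wk over 2 wk 37.5 (31.7 to 44.6). Its level in granulosa-like cells was 1.74, 1.31, 2.12, 4.72 and 5.63 CPM, 3.23 (2.58 to 4.08) times from 2 to 6 wk. In blood endothelial-like cells Isg15 measured 43.7, 81.3, 155, 276 and 257 CPM. The stromal level thus began far below the endothelial one and stayed below it at all 5 ages, whereas the granulosa level stayed at a few CPM. Usp18 went the same way in stromal-like cells, with 0.302, 0.566, 5.35, 6.50 and 9.80 CPM, and Trim25 changed less, with 27.9, 28.5, 48.8, 44.4 and 36.3 CPM. In granulosa-like cells Trim25 was flat at 22.1, 22.9, 22.7, 23.8 and 23.6 CPM.

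IFIT proteins bind viral RNA that lacks the host's cap marks. Ifit1 had the widest range over ages of all members with at least 200 UMIs, in stromal-like and in granulosa-like cells. It measured 0.583, 0.0999, 7.31, 12.4 and 26.3 CPM in stromal-like cells and 0.367, 0.0211, 0.370, 1.65 and 3.46 CPM in granulosa-like cells. From 2 to 6 wk its level became 45.1 (30.8 to 68.8) times as high in the first and 9.43 (5.98 to 15.7) times in the second. Without the 1% of stromal-like cells with the most interferon-gene UMIs that ratio was 89.98, with the coarser clustering 149.5 and without integration of the libraries 231.2. Ifit1 in blood endothelial-like cells was 1.07, 0, 25.2, 70.3 and 69.7 CPM. Ifit3 rose along with it in stromal-like cells, from 0.367 CPM at 2 wk to 24.5 CPM at 6 wk, and Ifit2 less, with 6.30, 3.66, 6.06, 8.17 and 10.7 CPM. Ifit3 and Ifit3b share 34.7% and 30.1% of their 91-base stretches with other transcripts, so part of their separate counts is uncertain. In the last 500 bases, toward the counted 3′ end, the shared part was 6.34% and 0%.

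**Figure D2:**
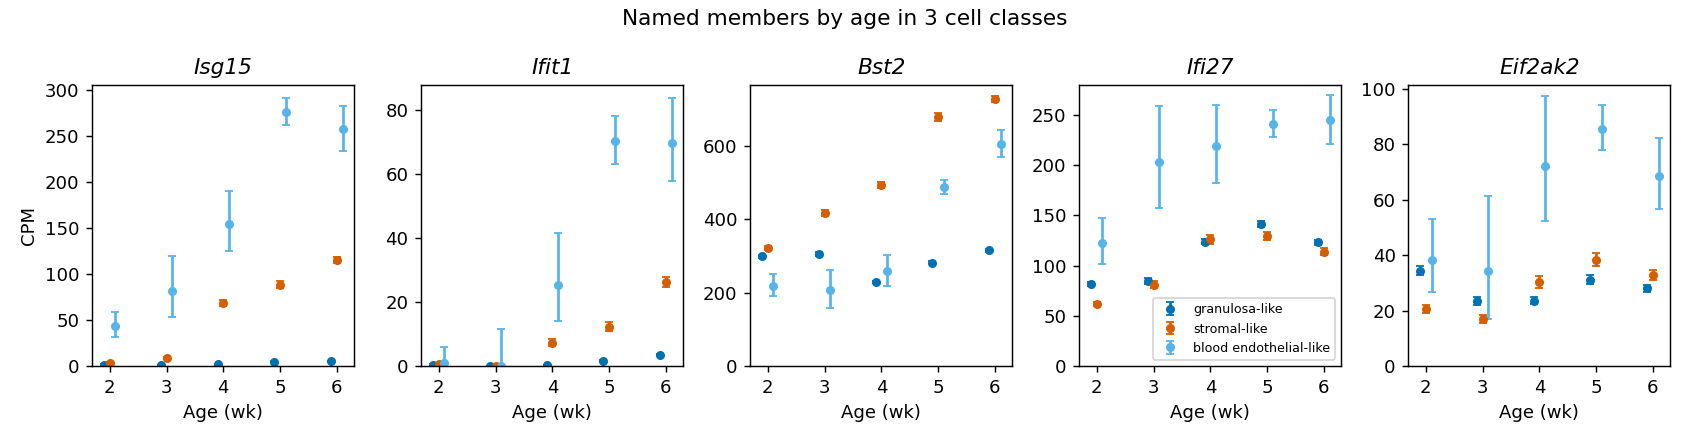
CPM of Isg15, Ifit1, Bst2, Ifi27 and Eif2ak2 (y axes, 1 panel per gene) against age in weeks (x axes) in granulosa-like, stromal-like and blood endothelial-like cells, 1 library per age, with exact 95% Poisson intervals. Isg15 climbs in stromal-like cells from 3.09 to 116 CPM, and Bst2 in granulosa-like cells stays between 229 and 315 CPM.

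Among the members that encode transcription factors, Irf7 drives the interferon genes themselves and Irf9 and Stat2 form the complex that binds the response element. Irf7 measured 2.87, 4.83, 17.7, 15.9 and 15.3 CPM in stromal-like cells. For Irf9 the stromal levels were 11.2, 14.0, 27.9, 28.1 and 29.6 CPM. Those of Stat2 were 7.08, 8.59, 21.2, 21.4 and 18.9 CPM. All 3 factors stood higher at 4, 5 and 6 wk than at 2 and 3 wk. In granulosa-like cells they summed to 23.2, 18.7, 21.7, 24.9 and 27.0 CPM, without such a step. Irf9 overlaps exons of Rnf31 on the same strand, and part of its UMIs could belong there.

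The OAS proteins make oligoadenylates that activate RNase L, OASL proteins are their relatives, and Eif2ak2 encodes PKR, which stops translation when it meets double-stranded RNA. Oasl2 measured 2.76, 4.66, 36.5, 25.1 and 32.2 CPM in stromal-like cells, and over all ages it was highest in rete ovarii-like (252 CPM) and surface epithelial-like cells (211 CPM). Eif2ak2 was the third most abundant member of granulosa-like cells, at 34.4, 23.5, 23.7, 31.3 and 28.1 CPM, with a ratio of 6 wk over 2 wk of 0.817 (0.768 to 0.870). In stromal-like cells it measured 20.6, 17.0, 30.3, 38.5 and 32.8 CPM, a ratio of 1.59 (1.46 to 1.73). Oas3 was counted almost only in hematopoietic-like cells, at 19.1 CPM over all ages, against 0.135 CPM in pericyte-like cells and 0 UMIs in blood endothelial-like cells, a count that allows up to 0.3496 CPM. Oas1a, which shares 43.2% of its 91-base stretches with Oas1g and others and is uncertain for that reason, was also highest in hematopoietic-like cells (19.5 CPM). Oas2 there reached 15.1 CPM and Oasl1 19.1 CPM.

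The sensors of foreign nucleic acid are Ddx58 (RIG-I), Ifih1 (MDA5), Dhx58 (LGP2) and Zbp1, which recognizes Z-form nucleic acid. Ddx58 measured 10.8, 10.7, 22.9, 25.3 and 24.4 CPM in stromal-like cells. Ifih1 measured 3.04, 4.23, 14.1, 16.8 and 16.5 CPM. Both stood at a higher level from 4 wk on. In granulosa-like cells Ddx58 measured 4.23, 3.70, 4.76, 7.12 and 6.38 CPM and Ifih1 7.04, 6.32, 8.07, 9.80 and 7.22 CPM. Zbp1 was highest in hematopoietic-like cells, with 59.1 CPM over all ages against 3.85 CPM in blood endothelial-like and 21.3 CPM in lymphatic endothelial-like cells. Its stromal level held at 3.86, 4.03, 5.18, 6.39 and 5.12 CPM. Dhx58 was low outside hematopoietic-like (21.4 CPM) and blood endothelial-like cells (11.1 CPM).

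Effectors that act on virus directly include Bst2, the most abundant member in 8 of the 11 named classes. Bst2 measured 299, 306, 229, 282 and 315 CPM in granulosa-like cells, with no steady direction. Its level in stromal-like cells climbed at each age, with 321, 417, 494, 679 and 729 CPM, 2.27 (2.22 to 2.31) times over the 5 ages. For blood endothelial-like cells the levels were 219.7, 206, 259, 488 and 606 CPM. At 2 wk granulosa-like cells therefore held more Bst2 than blood endothelial-like cells, and at 5 and 6 wk less. Rsad2, or viperin, makes a chain-terminating nucleotide, and its neighbour Cmpk2 is a mitochondrial nucleotide kinase. Rsad2 was seen mainly in blood endothelial-like cells, at 29.9, 15.6, 68.9, 68.9 and 164 CPM, and in hematopoietic-like cells, at 53.9 CPM over all ages. Cmpk2 in blood endothelial-like cells held at 20.3, 15.6, 20.2, 24.1 and 28.6 CPM. Sp100, a protein of nuclear bodies, separated the 2 kinds of endothelium, with 121 CPM in blood and 0.445 CPM in lymphatic endothelial-like cells. In stromal-like cells Sp100 measured 0.906, 1.83, 14.3, 20.3 and 20.01 CPM. Trim30a had 114 CPM in hematopoietic-like and 69.3 CPM in blood endothelial-like cells, and 17.7% of the last 500 bases of its transcript are shared with Trim30d. Samd9l, a brake on translation, was near 63.2 CPM in blood endothelial-like, 62.2 CPM in lymphatic endothelial-like and 67.2 CPM in hematopoietic-like cells, and Mx1 passed 3 CPM in hematopoietic-like cells alone (18.1 CPM).

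PARP9 and DTX3L work as a pair that marks proteins with ADP-ribose and ubiquitin, and PARP14 is a second ADP-ribosyltransferase. Parp14 was the highest of them in blood endothelial-like (105 CPM) and hematopoietic-like cells (112 CPM). In stromal-like cells Parp14 measured 2.50, 3.96, 15.2, 19.0 and 17.4 CPM. Parp9 stood at 4.53, 4.20, 11.7, 13.9 and 16.8 CPM. Dtx3l followed with 3.69, 5.16, 12.9, 10.996 and 15.9 CPM, so all 3 passed a ratio of 2 between 3 and 4 wk.

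The inducible GTPases (Gbp2, Gbp3 and Gbp7 of the guanylate-binding proteins, Igtp and Irgm1 of the immunity-related ones) attack vacuoles that hold microbes. Gbp2 was the most abundant member of surface epithelial-like cells, at 329, 329.7, 354, 309 and 258 CPM at the 5 ages, where it already stood high at 2 wk. Its stromal levels were 3.91, 4.70, 16.7, 22.1 and 17.2 CPM. Gbp7 was highest in blood endothelial-like cells, at 77.8, 116, 97.5, 224 and 159 CPM. Irgm1 there measured 71.4, 59.4, 33.6, 127 and 56.02 CPM, with no steady direction, and 61.7 CPM over all ages in theca-like cells. Igtp, which shares exons with Irgm2, had 56.5 CPM in blood endothelial-like and 3.26 CPM in granulosa-like cells, and Gbp3 56.9 and 1.43 CPM.

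The 6 members left over are Ifi27, Rtp4 (a chaperone and virus inhibitor), Ifi35, Ifi44, Xaf1 (an apoptosis factor) and Lgals3bp (a secreted galectin ligand). Ifi27 measured 81.7, 84.6, 124, 141 and 123 CPM in granulosa-like cells, 1.51 (1.46 to 1.56) times from 2 to 6 wk, near the median ratio of 1.42 of the 35 members compared there. In stromal-like cells it measured 61.9, 81.2, 126, 129 and 114 CPM. In blood endothelial-like cells it stood at 123, 203, 219, 241 and 244 CPM. Ifi44 was the member most tied to endothelium, with 85.2 CPM in blood and 49.8 CPM in lymphatic endothelial-like cells and at most 8.34 CPM, in surface epithelial-like cells, in any other class. Rtp4 in stromal-like cells measured 1.42, 2.13, 19.6, 22.3 and 32.7 CPM. Lgals3bp had 17.8, 21.6, 72.9, 72.1 and 82.9 CPM. Xaf1 reached 3.06, 2.43, 10.4, 17.4 and 23.4 CPM, and Ifi35 8.85, 11.9, 24.4, 22.5 and 29.4 CPM.

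**Figure D3:**
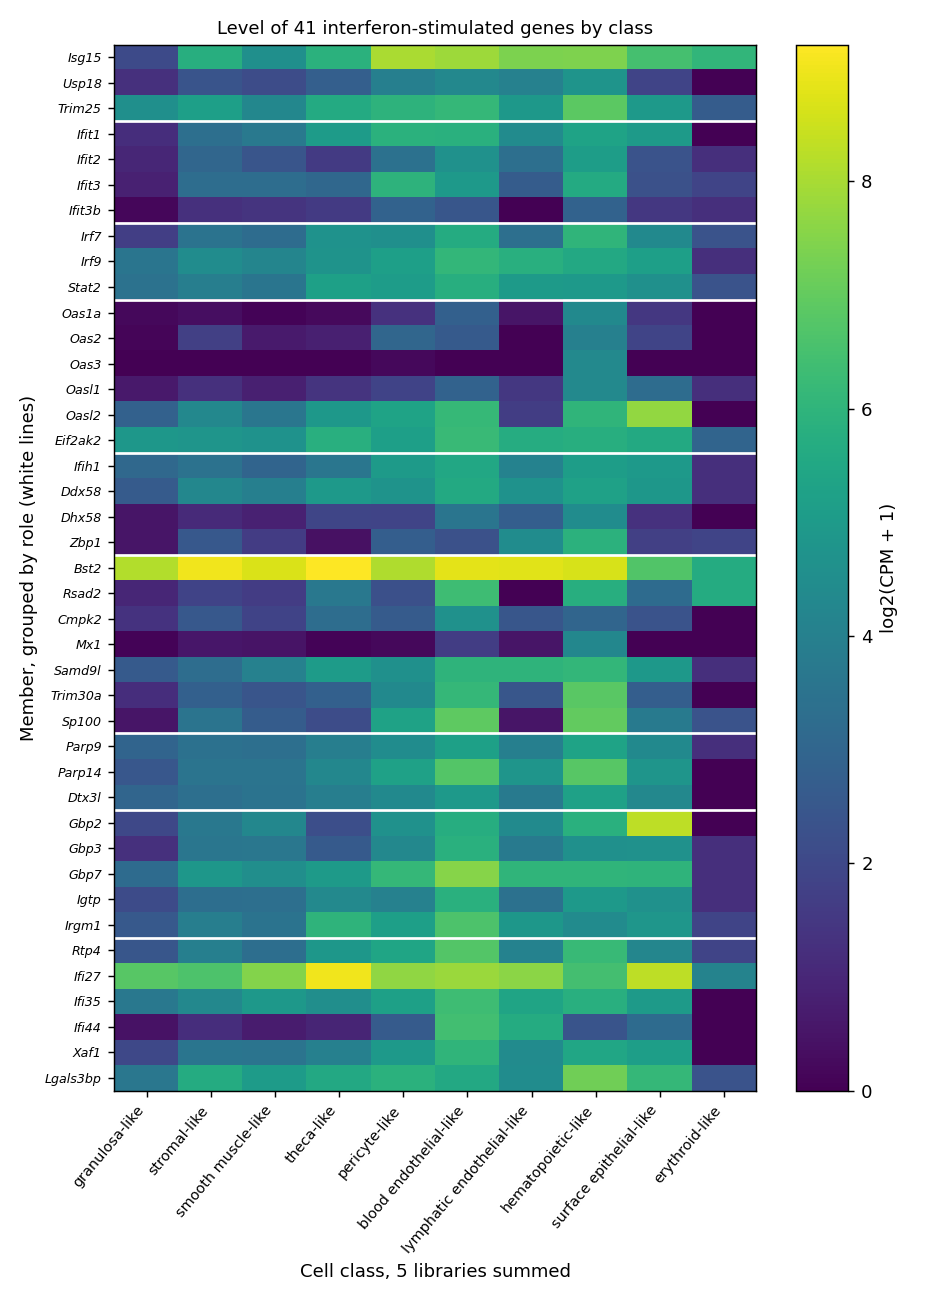
CPM of each measured member (rows, grouped by role) in each cell class (columns) over the 5 libraries, as colour on the scale log2(CPM + 1). Bst2 and Ifi27 are the brightest in most classes, Gbp2 and Oasl2 stand out in surface epithelial-like cells, and Oas3 is seen in hematopoietic-like cells.

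To ask in which classes the members stood apart, the UMIs of each class in each library were summed and each class was set against the mean of the other classes with edgeR, with the library as a block, over 10 classes and 11981 genes. The test compares classes over 5 libraries of different ages, so its error holds the differences between ages, and a call needed an adjusted p under 0.05 and a 2-fold difference. Of 37 members that passed the filter on low counts (Ifit3b, Oas1a, Oas3 and Mx1 did not), 31 were higher in blood endothelial-like cells, against 14.7% of all genes tested. Hematopoietic-like cells were higher in 30 of 37, against 17.2% of genes. Granulosa-like cells were lower in 18 of 37 and higher in none, also at an unadjusted p under 0.05 in edgeR and with DESeq2, against 7.41% of genes called lower. In both former classes no member was called lower (edgeR; unadjusted p under 0.05 was reached only by Ifi27, in hematopoietic-like cells). The median log2 difference of the members was 2.03 in blood endothelial-like, 2.24 in hematopoietic-like and -1.88 in granulosa-like cells, beside 0.07, 0.08 and 0.16 over all genes. The same test called 10 of 37 members higher in pericyte-like (12.9% of genes) and 12 of 37 in surface epithelial-like cells (13.3%).

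The granulosa count depends on which classes and libraries enter. In edgeR's fit, a gene without any UMI in the sums of another class could not be called lower by this contrast. Of the 37 members, 13 had no UMI in erythroid-like cells and 2 had none in lymphatic endothelial-like cells. With the erythroid-like class left out, an alternative added after the data were seen, 32 of 38 members were lower in granulosa-like cells, beside 14.5% of genes. DESeq2, with the erythroid-like class kept, called 33 of 37, beside 20.2% of genes. With 1 library left out in turn 11 to 17 members were called (6.15 to 6.95% of genes), the fewest without the 5 wk library. Under DESeq2's size factors the median of all genes in granulosa-like cells moved from 0.16 to -0.07, and the shares of genes higher and lower from 11.7% and 7.41% to 8.15% and 9.55%, with 18 members still lower. Of the 6 members that were not lower without erythroid-like cells, Bst2, Eif2ak2, Ifi27 and Trim25 fell short of the fold, with log2 differences of -0.16 ± 0.15, -0.46 ± 0.15, -0.67 ± 0.16 and -0.87 ± 0.14 (SE), and Rsad2 and Oas2 still met a class without UMIs.

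In blood endothelial-like cells Ifi44 led, with a log2 difference of 5.36 ± 0.27 (SE, edgeR, adjusted p = 1.80e-20). Rsad2 followed with 4.38 ± 0.48 (SE, edgeR, adjusted p = 2.81e-10), Sp100 with 3.95 ± 0.28 (SE, edgeR, adjusted p = 2.16e-16), Trim30a with 3.93 ± 0.35 (SE, edgeR, adjusted p = 9.07e-13) and Cmpk2 with 3.34 ± 0.42 (SE, edgeR, adjusted p = 1.08e-08). Where a class holds no UMI the size depends on the small count that the fit adds, and with erythroid-like cells left out Ifi44 stood at 4.52 ± 0.21, Trim30a at 2.91 ± 0.24 and Cmpk2 at 2.41 ± 0.29 (SE). At the other end, Bst2 was 0.13 ± 0.15 (SE, edgeR, adjusted p = 0.568) and Zbp1 -0.25 ± 0.47 (SE, edgeR, adjusted p = 0.767), neither of them called. Besides these 2, Trim25, Eif2ak2, Ifi27 and Lgals3bp were not called in blood endothelial-like cells.

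Hematopoietic-like cells had a different order. Trim30a led with 5.17 ± 0.30 (SE, edgeR, adjusted p = 1.05e-18), then Oas2 with 5.02 ± 0.57 (SE, edgeR, adjusted p = 1.64e-09), Sp100 with 4.47 ± 0.28 (SE, edgeR, adjusted p = 2.27e-18), Zbp1 with 4.44 ± 0.26 (SE, edgeR, adjusted p = 2.05e-19) and Dhx58 with 4.32 ± 0.42 (SE, edgeR, adjusted p = 8.93e-12). Without erythroid-like cells these were 4.17, 4.40, 4.63, 4.67 and 3.52. The lowest of the members were Irgm1, at -0.00 ± 0.49 (SE, edgeR, adjusted p = 1), and Ifi27, at -0.87 ± 0.20 (SE, edgeR, adjusted p = 2.65e-04). Ifi27 was called lower once the erythroid-like class was left out, at -1.05 ± 0.19 (SE). Also not called were Cmpk2, Ifi44, Eif2ak2, Stat2 and Bst2.

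In granulosa-like cells the steepest differences were those of Sp100, -4.83 ± 1.42 (SE, edgeR, adjusted p = 0.00355), and Isg15, -4.83 ± 0.48 (SE, edgeR, adjusted p = 1.15e-11). At the near end stood Dtx3l (0.02) and Ifi35 (-0.17), 2 of the members at 0 UMIs in erythroid-like cells, whose values were -1.15 ± 0.20 and -1.46 ± 0.15 (SE) without that class. Bst2 measured -0.06 ± 0.14 (SE, edgeR, adjusted p = 0.843), Eif2ak2 -0.37 ± 0.17 (SE, edgeR, adjusted p = 0.0713) and Ifi27 -0.48 ± 0.16 (SE, edgeR, adjusted p = 0.0109), none of them by 2-fold. These 3 are also the most abundant members of the class. By role, 4 of 5 GTPases and all 3 transcription factors were called lower, and 1 of 4 tested members of the OAS family and PKR, beside 7.41% of all genes. Members at 0 UMIs in erythroid-like or lymphatic endothelial-like cells could not be called lower in this fit, so these counts do not rank the roles.

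**Figure D4:**
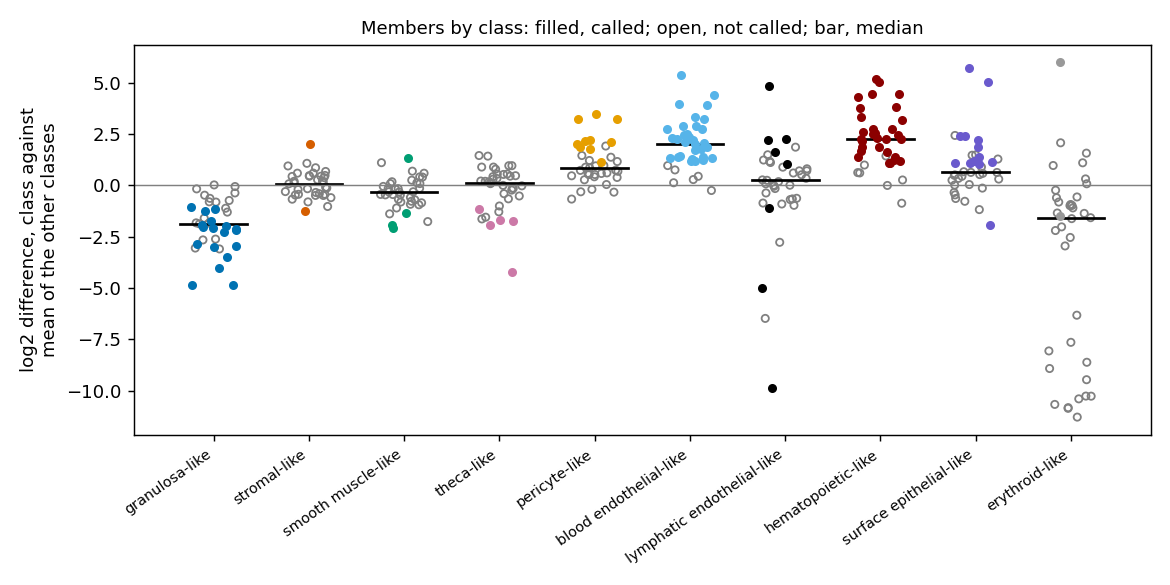
Log2 difference of each tested member (points) between a cell class and the mean of the other classes (y axis) for the classes tested (x axis), from edgeR over 5 libraries; filled points are called, open points are not, and bars are medians. The lowest points of erythroid-like and lymphatic endothelial-like cells are members with no UMI there, whose size depends on the fit. The members sit mostly above 0 in blood endothelial-like (median 2.03) and hematopoietic-like cells (median 2.24) and below 0 in granulosa-like cells (median -1.88).

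The remaining classes had fewer calls. In lymphatic endothelial-like, stromal-like and smooth muscle-like cells the share of members called was near or below that of all genes. Surface epithelial-like cells were higher in Gbp2, 5.70 ± 0.30 (SE, edgeR, adjusted p = 2.13e-19), and Oasl2, 5.05 ± 0.41 (SE, edgeR, adjusted p = 1.19e-13), and lower in Bst2, -1.93 ± 0.19 (SE, edgeR, adjusted p = 7.36e-12). Pericyte-like cells were higher in Ifit3, 3.25 ± 0.37 (SE, edgeR, adjusted p = 5.05e-10), and Isg15, 2.10 ± 0.32 (SE, edgeR, adjusted p = 4.73e-07). Lymphatic endothelial-like cells were higher in 5 members (12.6% of genes), Ifi44, Zbp1, Usp18, Samd9l and Irf9, and lower in 3 (6.24% of genes), Lgals3bp, Sp100 and Rsad2, the last with no UMI there. Their Ifi44 difference was 4.84 ± 0.38 (SE, edgeR, adjusted p = 5.74e-14). Stromal-like cells, averaged over ages, were higher in Oas2 (1 of 37, 11.5% of genes) and lower in Samd9l (3.91% of genes lower). Theca-like cells were lower in 5 members, Isg15, Gbp3, Ifit2, Sp100 and Zbp1 (8.76% of genes), and smooth muscle-like cells were higher in Ifi35 (12.2% of genes) and lower in 3, Rtp4, Oasl1 and Isg15 (5.81%). With DESeq2, and also without the library block, 0 members were called higher in stromal-like or smooth muscle-like cells. Oas2 and Ifi35 each had no UMI in another class, where the size depends on the fit. In erythroid-like cells, the shallowest class with a median of 1043 UMIs, Rsad2 was called higher and Ifi27 lower, Rsad2 at 50.1 CPM over all ages. That class held 175 UMIs of the members in all, and with the 5 wk library left out 0 members were called higher in it. With erythroid-like cells left out, the higher calls of 38 members were 7 in surface epithelial-like (11.9% of genes) and 7 in pericyte-like cells (11.2%). The lower calls in that fit were 13 in smooth muscle-like (9.12% of genes), 8 in theca-like (14.1%) and 5 in stromal-like cells (6.11%).

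The next question was when the members changed within a class. Genes were compared between ages where they had at least 50 UMIs over both, and a ratio of at least 2 or at most 0.5 was counted. A gene could reach that minimum through 1 age alone. The rule was the same for members and all genes, but it did not let them in alike. In theca-like cells 4 members were compared at 3 wk over 2 wk and 30 at 5 wk over 2 wk, beside 6667 and 9911 genes. In hematopoietic-like cells it was 8 at 3 wk over 2 wk and 30 at 6 wk over 2 wk, beside 3265 and 5150 genes. The share of all genes is therefore not a fully like comparison. Between 3 and 4 wk, 27 of 36 members in stromal-like cells reached a ratio of 2, against 2.15% of 12543 genes, and the median ratio of the members was 3.16 beside 1.04 over all genes. From 2 to 3 wk 2 of 30 did (1.76% of genes), from 4 to 5 wk 0 of 38 (3.39%), and from 5 to 6 wk 4 of 39 (1.01%). Over the whole span 34 of 39 did (4.17%). Both the 3 and the 4 wk matrices were made with the same version of the counting software, which changed between 4 and 5 wk. Ratios of 5 or 6 wk over 2, 3 or 4 wk cross this change of version, and its part in any ratio was not tested.

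The step took in each group of the stromal members. Between 3 and 4 wk all 5 GTPases passed a ratio of 2 in stromal-like cells, with a median ratio of 3.00. Parp9, Parp14 and Dtx3l all did (2.78), as did 2 of 3 members of ISG15 conjugation (7.49), 2 of 3 tested IFIT genes and 2 of 3 transcription factors (2.46). Of the OAS family and PKR 3 of 4 did (4.91), of the antiviral effectors 4 of 6 (3.55), of the other members 4 of 5 (3.38) and of the sensors 2 of 4 (1.73). The abundant Bst2 went to 1.18 (1.15 to 1.21) times over this step, and Ifi27 to 1.55 (1.47 to 1.64) times.

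The step from 3 to 4 wk differed in extent among the other classes. Over it 14 of 20 members passed a ratio of 2 in theca-like cells (2.33% of genes) and 9 of 24 in smooth muscle-like cells (1.11%). It was 9 of 14 in pericyte-like cells (1.73% of genes), 4 of 18 in hematopoietic-like cells (3.13%) and 1 of 14 in blood endothelial-like cells (1.71%). Over 2 to 6 wk it was 26 of 32 members in smooth muscle-like (2.67% of genes), 22 of 29 in pericyte-like (4.35%), 19 of 32 in blood endothelial-like (3.18%) and 27 of 30 in hematopoietic-like cells (7.44%). Theca-like cells gained 2-fold in 29 of 30 members from 2 to 5 wk (10.1% of genes) and were at most 0.5 times as high in 24 of 31 at 6 wk over 5 wk (10.3%), with the 54 cells at 6 wk named above.

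From 2 to 6 wk members passed a ratio of 2 less often in granulosa-like than in stromal-like cells, but more often than all genes. The median ratio of the members in granulosa-like cells over this span was 1.42, beside 1.01 over all genes. Between 2 and 3 wk 2 of 28 members fell to at most 0.5 times (5.89% of genes). In the following steps 4 of 32 (4.56%), 4 of 35 (3.86%) and 2 of 35 (0.852%) passed a ratio of 2, and over 2 to 6 wk 11 of 35 did, against 6.71% of genes. Those that moved stayed low: Isg15 reached 5.63 CPM at 6 wk, Ifit1 3.46 CPM, Usp18 2.30 CPM and Rtp4 7.22 CPM. At such levels RNA set free from other cells has to be read beside them. Markers of stromal-like cells stood in granulosa-like cells at 0.889 to 1.87% of their stromal level, while Isg15 stood at 56.4% of its stromal level at 2 wk, 14.2% at 3 wk, 3.08% at 4 wk, 5.34% at 5 wk and 4.87% at 6 wk. The part of free RNA in the granulosa level of Isg15 was not tested beyond this.

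Among the named states of granulosa-like cells the sum differed. Unnamed granulosa-like clusters were not part of this comparison, and the states held unequal numbers of cells per age. Cells with markers of the antral stage held 699 CPM over all ages, cells of the remodeling type 615 CPM, cells in S phase 509 CPM and mitotic cells 494 CPM. Antral cells went from 560 CPM at 2 wk to 773 CPM at 6 wk, and S phase cells from 486 to 536 CPM. For the 12 core genes alone (Isg15, Ifit1, Ifit2, Ifit3, Ifit3b, Irf7, Usp18, Rtp4, Oasl1, Oasl2, Rsad2 and Cmpk2), remodeling cells held 22.0 CPM at 2 wk and 78.7 CPM at 6 wk, and S phase cells 11.3 and 15.3 CPM. Among hematopoietic-like cells the macrophage-like ones, 133 cells, had the highest sum, 4089 CPM, beside 2334 CPM in 43 dendritic-like, 2595 CPM in 32 neutrophil-like, 2107 CPM in 52 T-like and 1633 CPM in 35 natural killer-like cells.

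A rise of a class can come from many cells or from a few, and this was read from single cells. Every cell was thinned to 5000 UMIs, shallower cells were left out, and the number of the 12 core genes with a UMI was counted. In stromal-like cells the share with any core UMI was 8.66, 11.3, 39.8, 43.2 and 45.9% at the 5 ages. The share with at least 4 core genes, called high here, was 0.0304, 0.162, 2.26, 2.90 and 3.83%, which is 3.83% (3.13 to 4.63) of 2662 cells at 6 wk. Without thinning it was 10.4% at that age. With 3 or more core genes the 6 wk share was 7.63% and with 5 or more 2.25%, and 42 of the 102 high cells sat exactly at 4, so that the cut ran through a range of counts. The mean core count per cell grew from 0.103 at 2 wk to 1.61 at 6 wk, and its variance over its mean from 2.17 to 22.2.

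**Figure D5:**
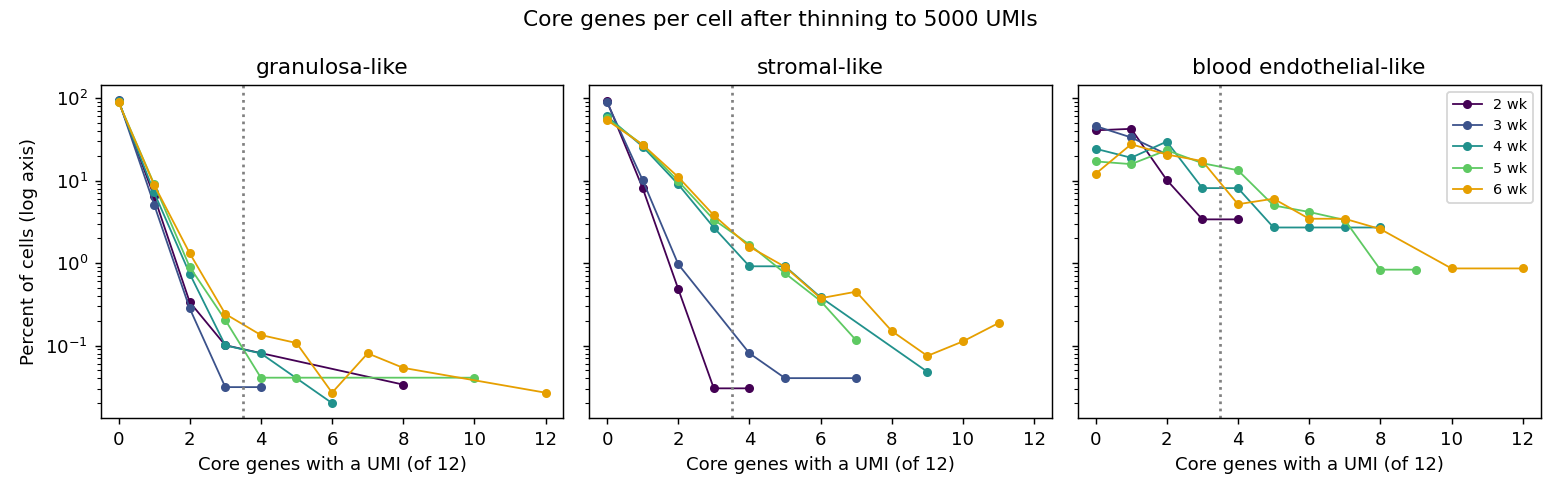
Share of cells in percent (y axis, log scale) by the number of the 12 core genes with a UMI (x axis) in granulosa-like, stromal-like and blood endothelial-like cells thinned to 5000 UMIs, with 1 line per age (colour) and a dotted line below 4 core genes. Shares of 0 are not drawn. In stromal-like cells the share with no core UMI goes from 91.3% at 2 wk to 54.1% at 6 wk, whereas in granulosa-like cells it is still 89.1%.

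Granulosa-like cells had core UMIs in 6.91, 5.47, 8.13, 10.3 and 10.9% of cells and 4 or more core genes in 0.0337, 0.0314, 0.101, 0.123 and 0.430%. Of 17277 granulosa-like cells 26 were high, 14 of them among the 3095 of the remodeling type (0.452%). The highest share over all ages, 3 of 372 cells (0.806%), was in an unnamed granulosa-like cluster led by Col1a2 and Col1a1. Doublets made up 44.6% of that cluster. Another unnamed granulosa-like cluster, led by Ifi204 and Gatm, had core UMIs in 25% of 52 cells at 6 wk, beside 14.25% of remodeling and 15.2% of antral cells. Ifi204 was not on the lists of interferon genes kept out of the clustering. Blood endothelial-like cells had core UMIs in 59.3, 54.2, 75.7, 82.9 and 87.9% of cells, above stromal-like and granulosa-like cells at all 5 ages. Their high share was 3.39, 0, 18.9, 27.5 and 22.4%, with 24 to 240 cells deep enough per library. The depth limit left out 61 of 120, 44 of 68, 62 of 99, 25 of 265 and 45 of 161 of these cells at the 5 ages. These shares therefore describe unequal parts of the class. Surface epithelial-like cells had core UMIs in 70, 76.5, 92.9, 89.4 and 81.6% of cells, above blood endothelial-like cells at 2, 3, 4 and 5 wk. High shares there were 0, 5.88, 7.14, 4.26 and 12.2%, with 2 high cells each at 3, 4 and 5 wk. Theca-like cells had core UMIs in 8.77, 7.38, 36.4, 50.6 and 21.2% of cells and high shares of 0, 0, 4.35, 5.67 and 0%. Pericyte-like cells had high shares of 1.03, 1.35, 9.09, 10.2 and 12.7%, hematopoietic-like cells of 2.70, 6.90, 10.9, 13.2 and 20% and smooth muscle-like cells of 0, 0, 0, 0.885 and 2.43%. A share of 0 in 650 smooth muscle-like cells at 2 wk allows, by the limit of 3 counts, up to 0.462%. At 2 and 3 wk the high cells were also under 3 in pericyte-like cells (1 of 97 and 1 of 74). So were those of hematopoietic-like (1 of 37 and 2 of 29) and granulosa-like cells (1 of 2966 and 1 of 3181). At 2 wk they were 1 of 3292 in stromal-like and 2 of 59 in blood endothelial-like cells. The high cells of the stroma were not of 1 kind, since at 6 wk they made up between 0.698% and 10.9% of each of the 7 stromal-like clusters.

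High cells carried the other members too. Over the 29 members outside the core, which did not choose the cells, high stromal-like cells at 6 wk held 3347 CPM and cells without any core UMI 1136 CPM. In granulosa-like cells of all ages the values were 2879.7 and 537 CPM, and in blood endothelial-like cells 3311 and 1493 CPM. Over all ages the 2 kinds of cells held unequal parts of each age. Of the high granulosa-like cells 16 of 26 came from 6 wk, against 3313 of 15837 without a core UMI. Of the high blood endothelial-like cells 2 of 101 came from 2 wk, against 24 of 99 without a core UMI. The part of age in such pooled differences was not tested. Stromal-like cells without a core UMI also moved with age in these 29 members, from 539.5 CPM at 2 wk to 1136 CPM at 6 wk, so the increase was not confined to cells called high. Doublets made up 0.980% of the high stromal-like cells at 6 wk and 0.208% of those without a core UMI, and markers of hematopoietic cells stood at 6.01 and 3.27 CPM in them. The core genes also met in the same cells. In stromal-like cells at 6 wk, Ifit1 had a UMI in 16.9% of cells with Isg15 and in 2.68% of cells without, Rtp4 in 25.7% and 9.54%, Oasl2 in 24.2% and 9.74%, and Bst2 in 89.97% and 84.5%.

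The genes that make, receive and pass on the interferon signal were read from a list of 33 further genes. The interferons themselves were at or next to 0, with 1 UMI of Ifnb1, none of Ifna1, Ifna2 and Ifna4, 1 of Ifne, 4 of Ifnk, 1 of Ifnl3, none of Ifnl2 and 52 of Ifng in all cells. Of the Ifng UMIs 50 were in hematopoietic-like cells, and the others were too few to assign to a class. The receptor chains were present throughout. Ifnar1 measured 24.9, 15.9, 18.3, 23.2 and 28.3 CPM in stromal-like and 30.9, 20.4, 20.1, 26.4 and 28.1 CPM in granulosa-like cells, and Ifnar2 37.2, 33.6, 45.1, 42.9 and 47.4 CPM and 28.5, 26.6, 33.9, 33.9 and 37.0 CPM. Neither chain differed by 2-fold between the 2 classes at any age. The chain of the interferon lambda receptor, Ifnlr1, had 83 UMIs in granulosa-like and 8 in stromal-like cells.

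Among the signal carriers, Jak1 was more abundant in granulosa-like cells, at 329, 496, 485, 482 and 639 CPM, than in stromal-like cells, at 302, 338, 399, 339 and 271 CPM. Irf1, a target of interferon gamma, measured 108, 148, 195, 209.8 and 85.4 CPM in stromal-like cells and so had its peak at 5 wk and its lowest value at 6 wk. Socs3, a brake on cytokine receptors, also peaked at 5 wk, with 252, 214, 333, 601 and 269 CPM. The stromal sum of the members was highest at 6 wk, but single members differed. At 6 wk over 5 wk the interval of the ratio lay above 1 for 19 of 39 members and below 1 for 9. Whether Irf1 or Socs3 went with any of them was not tested. Irf8, a factor of blood cells, also peaked at 5 wk in stromal-like cells, at 8.91, 12.6, 22.9, 25.1 and 11.1 CPM.

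Counted over the list by edgeR, 16 of 22 tested pathway genes were higher in hematopoietic-like cells (17.2% of all genes) and 9 of 22 in blood endothelial-like cells (14.7%), and 6 of 22 were lower in granulosa-like cells (7.41%). In stromal-like cells 2 of 22 were higher, which is no more than the 11.5% of all genes.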

How the data were processed

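Droplet single-cell RNA sequencing was run on mouse ovarian cells, with 1 library for each of 5 ages (2, 3, 4, 5 and 6 wk). Counts are deposited as UMIs per gene and cell; the authors made them with Cell Ranger (3.1.0 for 2, 3 and 4 wk and 6.0.1 for 5 and 6 wk, per the file headers) on mm10, and the submitters' notes also name Seurat 4.1.0. The matrices hold filtered cells, all of which were kept, and cells called doublets by Scrublet were left out as an alternative.

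Libraries were integrated and clustered with Seurat 5.3.0 (R 4.3.3; 2000 variable genes less 20 members and pathway genes, 30 components, 20 neighbours, resolution 1, seed 1), and clusters were named from marker genes, each needing 3 or more. CPM were computed from summed UMIs. Classes with at least 10 cells in each library were compared by edgeR 4.0.16's quasi-likelihood test on UMI sums per library and class, after its filter on low counts and TMM normalization, with Benjamini-Hochberg adjustment and the library as a block. DESeq2 1.42.0 was an alternative. The other code ran in Python 3.11.15 with numpy 2.4.6, pandas 2.3.3 and scipy 1.17.1. On simulated counts for blood endothelial-like cells (10744 genes), the test recovered 50 of 50 genes changed 4-fold and 48 of 50 changed 3-fold upwards, with 5 false calls. The changed genes had a mean of at least 50 UMIs per sum, and libraries did not differ beyond their depth. Members absent from a class were therefore not covered by it.

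The members, the gene lists and the tests were chosen with earlier results of these data known. Named in full by age are the 3 members with the highest CPM in granulosa-like, stromal-like and blood endothelial-like cells and the one with the largest ratio between ages (at least 200 UMIs) in the first 2 of these. Named by class are the 5 members with the largest and the 2 with the smallest difference in the tests of blood endothelial-like, hematopoietic-like and granulosa-like cells. The other members were described by role. Results for 1 gene of the pathway list are not reported here.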

Additional observations from a re-analysis of the deposited data

Results flagged for a closer look

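Of the 2 largest classes, Eif2ak2 stood lower at 6 wk than at 2 wk in granulosa-like cells and higher in stromal-like cells. Its levels over all ages, given above, had no steady direction in either class. Its ratio of 6 wk over 2 wk was 0.817 (0.768 to 0.870) in granulosa-like cells and 1.59 (1.46 to 1.73) in stromal-like cells. With 1 library per age, the difference between the 2 ratios was not tested.

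The 7638 cells of unnamed clusters, which entered no comparison, carried a signal of the same kind. Their summed level of the 41 members was 2.00 (1.93 to 2.07) times as high at 6 wk as at 2 wk.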

How the results depend on the processing

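Of the values recomputed for the main comparisons 82 stayed within their interval or within 1.5 times their count and 29 moved; of those for single genes 67 stayed and 8 moved, all in the same direction. Without erythroid-like cells the granulosa difference of Dtx3l went from 0.02 to -1.15, and Ifi27 was called lower in hematopoietic-like cells (-1.05), where no member had been. Ratios of 6 wk over 2 wk of the summed members were, without the highest 1% of cells, 1.17 in granulosa-like, 2.81 in stromal-like, 2.47 in smooth muscle-like and 3.31 in hematopoietic-like cells; without Bst2 they were 1.36, 3.79, 2.91 and 4.02; and as a mean over cells 1.25, 3.09 and 2.80 in the first 3. At resolution 0.6 the stromal ratio was 3.09, and without integration 3.27, with 2.90 in smooth muscle-like cells. The theca ratio of 6 wk over 5 wk was 0.707 at resolution 0.6, 0.344 without Bst2 and 0.577 as a mean over cells.

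Members lower in granulosa-like cells were 33 with DESeq2 and 32 without erythroid-like cells, beside the shares of genes given above. With 1 library left out they were 11 to 17 (6.15 to 6.95% of genes), the fewest without the 5 wk library. Members higher with 1 library left out were 28 to 32 in blood endothelial-like (13.6 to 15.5% of genes) and 27 to 31 in hematopoietic-like cells (16.4 to 17.7%). Without the library block the 3 counts were 18 (7.44% of genes), 27 (14.2%) and 29 (16.9%). The high share at 6 wk was 0.213% in granulosa-like, 2.24% in stromal-like and 12.4% in blood endothelial-like cells at 3000 UMIs, and 5.38% and 33.6% in the latter 2 at 8000 UMIs. With 3 core genes it was 7.63% and 39.7% in these, and with 5 core genes 2.25% in stromal-like cells. Granulosa-like members up 2-fold from 2 to 6 wk were 7 at a minimum of 200 UMIs, where the share of all genes was not computed. The causes were not tested. No paired analysis was possible because each age is 1 library. Counting intervals say nothing of the spread between mice, and blood endothelial-like shares at 3 wk rest on 24 cells.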

Other observations

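Rete ovarii-like cells, the epithelium of the tubules at the ovarian hilum, were too few for the class test, with 53, 32, 5, 1 and 0 cells at 2, 3, 4, 5 and 6 wk. Over the 91 cells Ifi27, Irgm1 and Oasl2 led the members, with 295 CPM for Irgm1, 252 CPM for Oasl2, 174 CPM for Gbp7 and 97.6 CPM for Gbp2. The summed members stood at 1829 CPM at 2 wk and 3225 CPM at 3 wk. Both values were above those of surface epithelial-like cells at the same ages, at 1240.0 and 1622 CPM, and were not tested.

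Macrophage-like cells went from 1419 CPM of summed members at 2 wk, with 5 cells, to 5950 CPM at 6 wk, with 38 cells.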
